A study of Mus musculus with 26 samples.

Results

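The genes described here encode laminin chains and other components of the basement membrane: Lama2, Lama4, Lamb1, Lamb3, Lamc1, Nid1, Col18a1, Col4a3 and Col4a4. They were chosen by name, through every probe set whose single gene symbol in the array annotation is a member. These were 285 of the 53857 probe sets with a single symbol, for 9 of 5109 genes. Of these 5109 genes 1716 lie on chromosome 11, 1292 on chromosome 1, 1074 on chromosome 10, 789 on chromosome 12 and 210 on chromosome 13, and few elsewhere. Backgrounds over all genes and counts of listed genes on the table therefore cover mainly these chromosomes, and other genes were not analysed here. Lama2 had 55 probe sets, Lama4 37, Lamb1 33, Lamb3 23, Lamc1 25, Nid1 21, Col18a1 26, Col4a3 32 and Col4a4 33. Each probe set reads a short stretch of its gene, so probe sets of a gene share a target and are not replicates.

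The RNA came from sorted endothelium (CD31+/CD146+) of tumours or kidneys of female mice and was measured on 26 microarrays in 9 groups. MCA313 tumours, made to release interferon gamma (IFNγ, a cytokine of T cells) on induction, were taken without induction (0 h, 3 arrays), after 24 h (2 arrays) and after 48 h (2 arrays). Their hosts were PIG × Pdgfb-Cre × IFNγ-del mice aged 4 to 6 months, in which the Cre driven by Pdgfb leaves the IFNγ receptor on endothelial cells alone. J558L tumours, made to release an IFNγ-GFP fusion, grew in Rag-/- mice aged 4 to 6 months with the receptor on all cells. Tumour endothelium was taken from them after 24 h (3 arrays) and without induction (0 h, 2 arrays), and kidney endothelium from J558L-bearing mice after 24 h (3 arrays) and at 0 h (3 arrays). 16.113 tumours grew in Rag-/- mice aged 3 to 4 months and were taken 120 h after transfer of T cells that were IFNγ+/+ (competent, 3 arrays) or IFNγ-/- (deficient, 5 arrays). Rag-/- mice have no mature T or B cells of their own, so every mouse of the 16.113 groups had T cells from the transfer. The replicates are numbered with no word on separate animals, so the p-values measure the spread between these arrays, which may be partly technical.

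A basement membrane is the thin sheet of matrix under endothelium and epithelium. Laminins, its cell-facing polymer, are trimers of an α, a β and a γ chain, and the trimer of the chains from Lama4, Lamb1 and Lamc1 is a main laminin of blood vessels. Type IV collagen forms the other network, nidogen links the 2 networks, and collagen XVIII is a heparan sulfate proteoglycan of vessel walls whose cleaved end is the angiogenesis inhibitor endostatin.

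RefSeq promoter sequences (assembly GRCm38.p6, 250 bases before to 50 after a start site) were matched for 6 of the 9 genes, in 8 windows. They are shown for 3 genes with a called change (Lamb1, Lamb3 and Col18a1), for Col4a4, which was not called as a gene but overlaps Col4a3, and for Nid1, which was not called either, so that the upstream sequence can be read beside the values. Capitals mark the GC box, GGGCGG on either strand (CCGCCC where it lies on the opposite strand), and in the Col4a4 window the bases that lie within both the Col4a4 and the Col4a3 gene in RefSeq.
Lamb1 (chr12:31265043-31265342, plus strand): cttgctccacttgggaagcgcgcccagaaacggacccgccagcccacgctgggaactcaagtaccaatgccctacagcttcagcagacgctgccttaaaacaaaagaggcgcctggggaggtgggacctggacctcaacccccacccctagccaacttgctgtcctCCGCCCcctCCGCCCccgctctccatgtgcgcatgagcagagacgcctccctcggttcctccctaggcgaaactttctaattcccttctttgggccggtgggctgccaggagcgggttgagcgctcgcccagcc
Lamb3 (chr1:193301744-193302043, plus strand): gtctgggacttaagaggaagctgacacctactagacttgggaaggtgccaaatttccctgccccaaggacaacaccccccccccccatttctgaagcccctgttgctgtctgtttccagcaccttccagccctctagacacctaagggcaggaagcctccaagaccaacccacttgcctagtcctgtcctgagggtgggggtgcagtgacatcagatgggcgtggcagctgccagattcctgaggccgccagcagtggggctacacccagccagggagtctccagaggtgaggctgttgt
Col18a1 (chr10:77166481-77166780, minus strand): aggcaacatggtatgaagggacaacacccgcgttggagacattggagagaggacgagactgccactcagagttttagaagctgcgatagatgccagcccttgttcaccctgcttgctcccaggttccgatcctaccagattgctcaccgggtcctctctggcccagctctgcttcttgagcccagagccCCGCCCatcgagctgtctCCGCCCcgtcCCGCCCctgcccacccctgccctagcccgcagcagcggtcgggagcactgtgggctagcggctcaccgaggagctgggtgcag
Col4a4 (chr1:82586800-82587099, minus strand): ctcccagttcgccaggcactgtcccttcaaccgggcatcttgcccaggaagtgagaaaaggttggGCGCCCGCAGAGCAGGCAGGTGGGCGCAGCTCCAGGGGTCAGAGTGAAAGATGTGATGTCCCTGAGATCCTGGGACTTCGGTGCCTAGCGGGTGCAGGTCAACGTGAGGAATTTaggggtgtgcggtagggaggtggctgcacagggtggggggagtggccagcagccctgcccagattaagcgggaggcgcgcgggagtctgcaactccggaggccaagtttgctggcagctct
Nid1 (chr13:13437352-13437651, plus strand): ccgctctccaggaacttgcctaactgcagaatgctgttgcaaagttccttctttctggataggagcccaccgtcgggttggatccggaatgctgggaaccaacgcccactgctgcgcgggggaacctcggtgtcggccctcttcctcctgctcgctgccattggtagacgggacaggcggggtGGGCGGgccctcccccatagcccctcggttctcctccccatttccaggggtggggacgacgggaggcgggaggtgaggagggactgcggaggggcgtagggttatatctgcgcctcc

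No member window held the IFNγ-activated site motif TTCNNNGAA or the interferon-stimulated response element motif, searched on both strands, which 8.3% and 3.44% of all 32851 windows of the same length hold. The GC box occurred 3 times in this Col18a1 window, 2 times in that of Lamb1 and 1 time each in those of Nid1 and Lama2, and 35.7% of all windows hold it. Neither Lamb3 window nor the Col4a4 window held it. Both Lamb3 windows belong to start sites inside the annotated gene (chr1:193294353-193343878), so the sequence before its first annotated base was not searched. The start sites of the Col4a4, Lamb1 and Lama2 windows and of the Col18a1 window not shown also lie inside their annotated genes. The Lama2 window (chr10:27616893-27617192, minus strand) barely passes the first annotated base at 27617191, so nearly all sequence before that base was not searched. Col4a4 and Col4a3 lie head to head and their annotated ends share 114 bases. A match here is a run of letters and not a shown binding site.

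Levels are the deposited log2 values. Pairs of arrays of the same tumour and tissue had 421 to 2650 identical values in common, and other pairs at most 2, as separate normalization of 4 sets would give. Levels are therefore set side by side within a set alone. The median of an array was 5.78 to 5.88 for MCA313, 6.42 to 6.46 for J558L tumour, 6.33 to 6.40 for J558L kidney and 5.62 to 5.79 for 16.113. Pecam1, which encodes CD31, had group means of 13.51 to 13.95, and none of the 5 endothelial markers on the table fell below the array median in any group. Markers of other cells were also readable. Group means of Rgs5, a pericyte gene, were 7.68 to 11.76. In sorted bulk cells, fewer cells of a type and less RNA per cell cannot be told apart.

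Each gene is given in 2 ways, by its highest-mean probe set, which stands for the gene in the test over 4386 genes, and by the average of all its probe sets. Changes are log2 differences ± standard error from limma, called where the adjusted p is under 0.05. Where the arrays of 2 groups are said not to overlap in a gene, the share of all genes for which this holds is not given. All 9 genes passed the filter on low values by the highest-mean probe set, but 35 of the 285 probe sets never exceeded the array median in any array. By the highest-mean probe set, Lama4 and Lamb1 fell in kidney endothelium and Lamb3 fell in 16.113 tumours. By the average of probe sets, Col18a1 also fell in all 3 tumours, Col4a3 in kidney, Lamb1 in MCA313 at 48 h and in 16.113 tumours, and Lamc1 in MCA313 at 48 h. This summary called 2.8% of all genes at 24 h and 3.1% at 48 h in MCA313, 2.12% in J558L tumours, 5.93% in kidney and 9.35% in 16.113 tumours, in either direction. Lama2, Nid1 and Col4a4 were not called as genes in any comparison in either way. No member gene was called higher in the 5 comparisons with a control. By the highest-mean probe set limma called 0 of 9 genes in MCA313 at 24 h, in MCA313 at 48 h and in J558L tumours (background 0.684%, 1.37% and 0.547% in either direction, and 0.456% lower at 48 h). An unadjusted p under 0.05 was found for 0, 1 and 0 of them, against 479, 560 and 357 of all 4386 genes. Between 48 h and 24 h limma called 0 of 9 (background 0.0684%), with 0 at an unadjusted p under 0.05, against 166 of all genes.

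**Figure D1:**
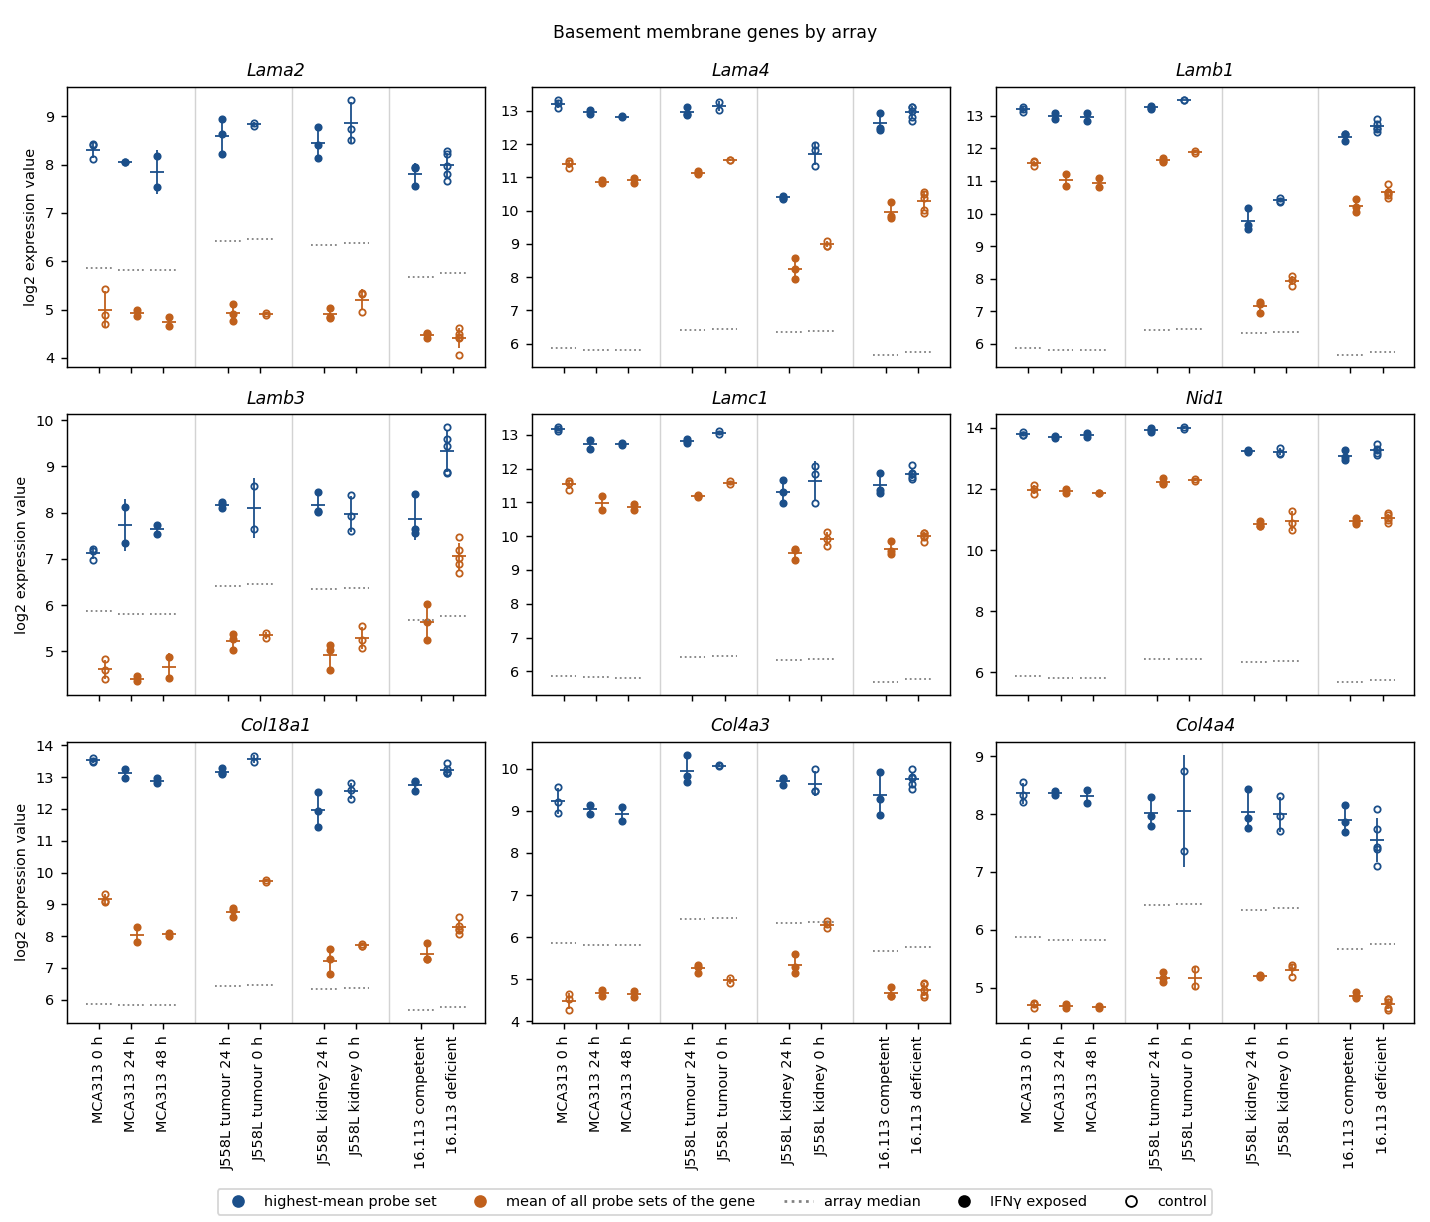
Log2 expression of the 9 genes in every array, by the highest-mean probe set (blue) and by the mean of all probe sets of the gene (orange). Filled points are arrays after IFNγ or competent T cells and open points are 0 h or deficient T cells, crosses are group means ± SD, dotted lines are array medians, and grey lines part the 4 sets. Lamb3 by its highest-mean probe set stands at 7.87 with competent and 9.32 with deficient T cells, while Nid1 lies between 12.96 and 14.01 in all 26 arrays.

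Read over all 285 probe sets, the change was mostly downward. In kidney endothelium 212 were lower at 24 h (74.4%, median -0.44), against 52.5% and -0.03 over all 53857 probe sets. In MCA313 tumours 212 were lower at 24 h (74.4%, median -0.37) and 211 at 48 h (74.0%, median -0.44), against 54.6% with -0.06 and 54.3% with -0.05 over all. In J558L tumours 192 were lower (67.4%, median -0.23, against 52.9% and -0.03), and in 16.113 tumours 201 (70.5%, median -0.26, against 52.9% and -0.03). The comparisons of 24 h and 48 h in MCA313 share their 0 h arrays.

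Past the test were 18 of the 285 probe sets in kidney, all lower (background 0.412% lower and 0.863% in either direction), and they belonged to Lama4 (8), Lamb1 (6) and Col4a3 (4). In 16.113 tumours 11 passed, all lower (background 1.48% lower and 2.28% in either direction), 6 of Lamb3 and 5 of Col18a1. The kidney count was 6 with the J558L arrays alone (background 0.787%), 8 and 9 without replicates 1 and 2 at 0 h (0.49% and 0.499%) and 11 without replicate 3 at 24 h (0.405%). The 16.113 count was 1 with the 16.113 arrays alone (0.139%), 1 with array weights (0.292%) and 7 without competent replicate 3 (0.891%). In MCA313 tumours 2 passed at 48 h, 1 of Col4a4 and 1 of Lama2, both lower (background 0.0798% lower), and 1 passed between 48 h and 24 h, the same Col4a4 probe set (background 0.00557% lower and 0.00928% in either direction). At 24 h in MCA313 limma called 0 of 285 (background 0.0186% lower and 0.0966% in either direction). In J558L tumours it also called 0 of 285 (background 0.0204% lower and 0.0854% in either direction). An unadjusted p under 0.05 was found for 52 and 22 of them, against 4582 and 2967 of all 53857 probe sets.

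**Figure D2:**
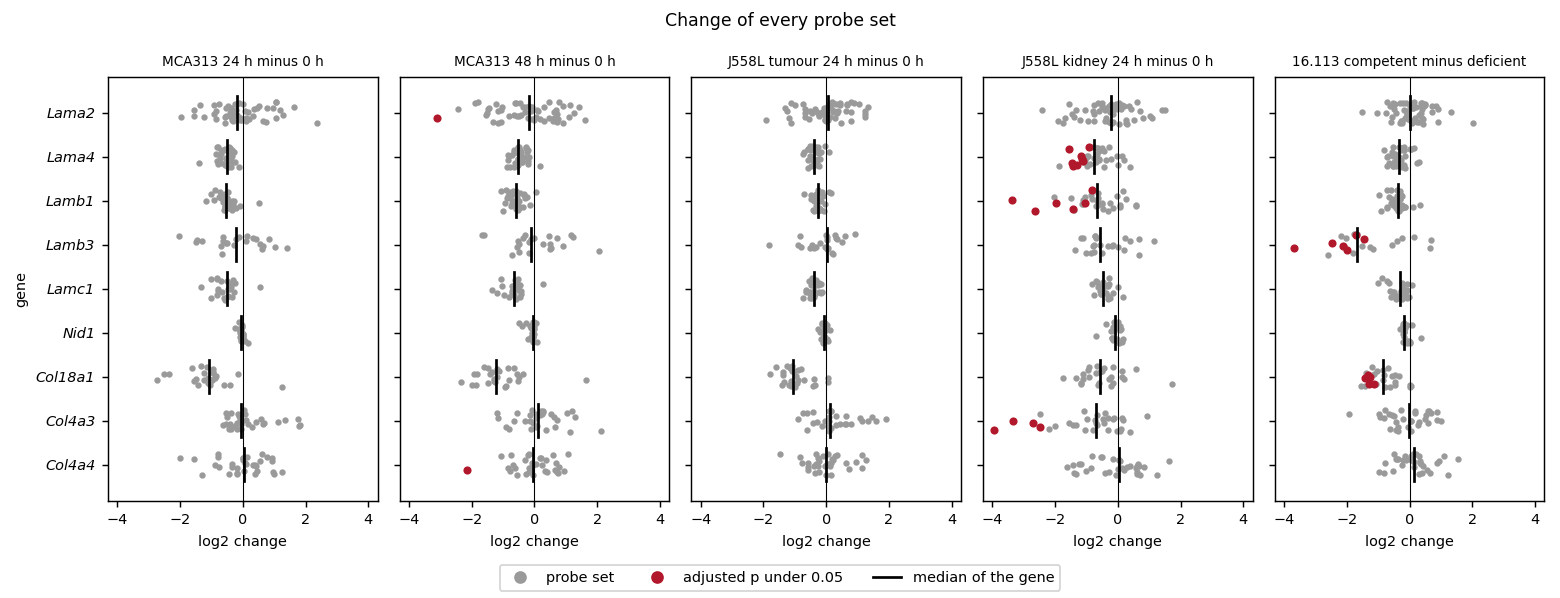
Log2 change of every probe set of each gene (horizontal axis) in the 5 comparisons with a control. Red points have an adjusted p under 0.05 and black bars are the median of the gene. The bar of Nid1 lies between -0.17 and -0.05 in the 5 panels, whereas the bar of Col18a1 lies near -1 in the 3 tumours and the red points of the kidney panel belong to Lama4, Lamb1 and Col4a3.

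Lama4 encodes the α4 chain, the laminin α chain typical of endothelium. In kidney its highest-mean probe set read 10.39, 10.45 and 10.36 at 24 h, against 11.97, 11.82 and 11.34 at 0 h. All 3 arrays at 24 h lay below all 3 at 0 h. The gene fell by 1.31 ± 0.17 on the log2 scale, 2.48-fold (10.40 ± 0.05 against 11.71 ± 0.33, SD, n = 3 each; adjusted p = 1.28e-04), and it was 1 of 2 among the 9 genes called there (background 3.17% of genes in either direction and 1.53% lower). The call held in all 14 alternatives, with changes of -1.50 to -0.74. Of its 37 probe sets 33 were lower, with a median of -0.76, and 17 had groups that did not overlap (background 9.73%). Averaged over probe sets Lama4 was 8.25 ± 0.31 at 24 h against 8.99 ± 0.09 at 0 h, a change of -0.74 ± 0.17 (adjusted p = 0.00945; background 2.8% lower). Without the kidney replicate 3 at 24 h the averaged change was -0.58 with an adjusted p of 0.0747. In the same arrays the summed level of the 3 pericyte markers on the table was 11.26 to 11.33 at 24 h against 11.83 to 12.01 at 0 h. A summed level is the log2 of the added unlogged values, so here it mostly follows Rgs5, the highest of the 3. The part of these markers in the kidney results was not tested.

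In the tumours Lama4 was high and lower after IFNγ in most probe sets, without a call. In MCA313 its highest-mean probe set averaged 13.21 ± 0.13 at 0 h (n = 3), 12.95 ± 0.09 at 24 h and 12.82 ± 0.02 at 48 h (SD, n = 2 each). All 37 probe sets were lower at 24 h, with a median of -0.49, and 34 had groups that did not overlap (background 16.2%). In J558L tumours 36 of 37 were lower (median -0.38), and in 16.113 tumours 31 of 37 (median -0.33). The averaged changes were -0.54 ± 0.19 and -0.49 ± 0.19 in MCA313 at 24 h and 48 h (adjusted p = 0.150 and 0.198), -0.38 ± 0.19 in J558L tumours (adjusted p = 0.504) and -0.32 ± 0.15 in 16.113 tumours (adjusted p = 0.227).

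Lama2 encodes the α2 chain, the laminin chain of muscle and peripheral nerve whose loss causes a muscular dystrophy. Its highest-mean probe set lay between 7.53 and 9.35 in all 26 arrays, and 14 of its 55 probe sets never exceeded the array median. Changes ranged from -0.46 ± 0.27 in MCA313 at 48 h to -0.17 ± 0.22 in 16.113 tumours, with the kidney at -0.42 ± 0.24 (adjusted p = 0.490), and none was called. The averaged changes of Lama2 were -0.08 ± 0.19 and -0.25 ± 0.19 in MCA313 at 24 h and 48 h and -0.30 ± 0.17 in kidney, but 0.01 ± 0.19 in J558L tumours and 0.07 ± 0.15 in 16.113 tumours, where the sign was the other one, and none was called. The 1 called probe set, at 48 h in MCA313, read 2.61 ± 0.41 at 48 h (n = 2) against 5.72 ± 1.16 at 0 h (SD, n = 3). Both means of this Lama2 probe set lie below the array medians, so the size of that change is uncertain.

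Lamb1 encodes the β1 chain, the partner of α4 in vessels. In kidney its highest-mean probe set read 10.16, 9.64 and 9.53 at 24 h, against 10.47, 10.34 and 10.40 at 0 h. The groups did not overlap, and 9.73% of all single probe sets were lower without overlap. The gene fell by 0.63 ± 0.15 on the log2 scale, 1.55-fold (9.77 ± 0.34 against 10.40 ± 0.06, SD, n = 3 each; adjusted p = 0.0280). The call was lost without kidney replicates 1, 2 or 3 at 0 h (adjusted p = 0.0863, 0.0632 and 0.0749), without replicates 2 or 3 at 24 h (0.128 and 0.161), and in a fit of the J558L arrays alone (0.0729). The average of its 33 probe sets gave -0.79 ± 0.14 (7.16 ± 0.17 against 7.95 ± 0.15; adjusted p = 9.31e-04), and that held without each array in turn (highest adjusted p 0.0102). The largest fall among its called probe sets was -3.38 ± 0.36, to 3.53 ± 1.06 at 24 h against 6.91 ± 0.33 at 0 h. The mean at 24 h lies below the array median, which leaves its size uncertain.

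In the tumours the Lamb1 highest-mean probe set changed by -0.31 to -0.21 with no call. In MCA313 32 of 33 probe sets were lower at each of 24 h and 48 h, with medians of -0.54 and -0.57, and in 16.113 tumours 31 of 33 (median -0.38). Averaged over probe sets, Lamb1 read 11.54 ± 0.08 at 0 h (n = 3), 11.03 ± 0.24 at 24 h and 10.95 ± 0.19 at 48 h in MCA313 (SD, n = 2 each), and the 48 h change of -0.60 ± 0.16 was called (adjusted p = 0.0419; background 1.66% lower). In 16.113 tumours it was 10.24 ± 0.20 with competent against 10.65 ± 0.16 with deficient T cells, a called change of -0.41 ± 0.13 (adjusted p = 0.0442; background 6.48% lower). Both averaged calls were lost in some fits. The first was lost without MCA313 replicates 1 or 3 at 0 h or replicate 1 at 48 h (adjusted p = 0.151, 0.0927 and 0.441). The second was lost without competent replicates 1 or 2 (0.0897 and 0.197) and without deficient replicates 1, 2, 4 or 5 (0.103, 0.0706, 0.0506 and 0.0639). With the arrays of the tumour compared alone, both were lost (0.132 at 48 h in MCA313 and 0.185 in 16.113 tumours).

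Lamb3 encodes the β3 chain, known from the laminin that anchors the epidermis to the dermis. In 16.113 tumours its highest-mean probe set read 8.41, 7.64 and 7.57 with competent T cells, against 8.85, 9.85, 9.60, 8.87 and 9.44 with deficient T cells. Every array with competent T cells lay below every array with deficient T cells. The gene fell by 1.45 ± 0.27 on the log2 scale, 2.73-fold (7.87 ± 0.47, n = 3, against 9.32 ± 0.45, n = 5, SD; adjusted p = 0.00248). It was the 1 member gene called there (background 7.36% in either direction, 4.81% lower), and the call held in 15 of 16 alternatives and was lost in a fit of the 16.113 arrays alone (adjusted p = 0.0718).

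The fall ran through most of Lamb3. Of its 23 probe sets 20 were lower, with a median of -1.69, and 12 had groups that did not overlap (background 3.98%). The 6 called ones changed by -3.68 to -1.45, and probe set 17220967, the clearest of them, read 7.42 ± 0.15 with competent against 9.54 ± 0.25 with deficient T cells (SD; adjusted p = 1.12e-04). Averaged over probe sets Lamb3 was 6.02, 5.64 and 5.24 with competent T cells and 6.90, 7.03, 7.47, 6.70 and 7.19 with deficient T cells, a change of -1.42 ± 0.19 (adjusted p = 4.55e-05) that held without each array (highest adjusted p 7.92e-04). With competent T cells 12 of 23 probe sets exceeded the array median on average, against 18 with deficient T cells. In the other 7 groups 2 to 4 did, each against the medians of its own set. There Lamb3 changed by 0.61 ± 0.34 and 0.51 ± 0.34 in MCA313 at 24 h and 48 h, 0.06 ± 0.34 in J558L tumours and 0.20 ± 0.30 in kidney, none of them called. The averaged changes had the other sign in MCA313 at 24 h (-0.20), J558L tumours (-0.12) and kidney (-0.37), again without a call.

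Lamc1 encodes the γ1 chain, shared by most laminins. Its highest-mean probe set changed by -0.46 ± 0.25 and -0.44 ± 0.25 in MCA313 at 24 h and 48 h, -0.24 ± 0.25 in J558L tumours, -0.32 ± 0.23 in kidney and -0.34 ± 0.20 in 16.113 tumours, and none was called. Nearly all of its 25 probe sets were lower everywhere. The counts were 24 at each of 24 h and 48 h in MCA313, 25 in J558L tumours, 23 in kidney and 24 in 16.113 tumours. Averaged over probe sets the MCA313 arrays read 11.59, 11.38 and 11.64 at 0 h, 11.19 and 10.77 at 24 h, and 10.79 and 10.96 at 48 h, so both later groups lay below all 0 h arrays. Among all single probe sets 16.2% at 24 h and 16.4% at 48 h were lower without overlap. The averaged change of -0.66 ± 0.16 at 48 h was called (adjusted p = 0.0210) and that of -0.56 ± 0.16 at 24 h was not (adjusted p = 0.0585). The 48 h call was lost without replicates 1 or 3 at 0 h (adjusted p = 0.0876 and 0.0716) or replicate 1 at 48 h (0.304), and in a fit of the MCA313 arrays alone (0.112). Without replicate 1 at 24 h the 24 h change was called (-0.77, adjusted p = 0.0426). In kidney the averaged change was -0.42 ± 0.14 (adjusted p = 0.0911). In 16.113 tumours it was -0.37 ± 0.13 (adjusted p = 0.0754; called without competent replicate 3, 0.0477).

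Nid1 encodes nidogen, which binds the γ1 chain and type IV collagen. All 21 of its probe sets exceeded the array median in every array, and its highest-mean probe set had group means of 13.09 to 13.99. In kidney it read 13.20, 13.25 and 13.26 at 24 h against 13.14, 13.16 and 13.34 at 0 h, so the groups overlapped. Its changes were 0.02 ± 0.13 in kidney, -0.10 ± 0.14 and -0.04 ± 0.14 in MCA313 at 24 h and 48 h, -0.06 ± 0.14 in J558L tumours and -0.17 ± 0.11 in 16.113 tumours. The averaged changes ran from -0.11 to -0.04, with adjusted p of 0.674 to 0.988 in these 5 comparisons. The medians over its probe sets, -0.17 to -0.05, compare with -0.64 to -0.30 for Lamc1, and the difference was not tested.

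Col18a1, the collagen XVIII gene, differed between the 2 summaries in the tumours. Its highest-mean probe set, at 13.53 ± 0.07 in MCA313 at 0 h where values of the table reach 14.34, changed by -0.41 ± 0.23 at 24 h and -0.64 ± 0.23 at 48 h, by -0.40 ± 0.23 in J558L tumours, -0.60 ± 0.20 in kidney and -0.46 ± 0.18 in 16.113 tumours. None of these was called (adjusted p = 0.572, 0.203, 0.770, 0.136 and 0.138). The other probe sets moved further. In MCA313 25 of 26 were lower at 24 h and at 48 h (medians -1.09 and -1.23), and 22 had groups that did not overlap at each time (background 16.2% and 16.4%). In J558L tumours 24 of 26 were lower (median -1.05) and 23 had groups that did not overlap (background 14.6%), and in 16.113 tumours 23 of 26 were lower (median -0.84), 5 of them past the test at -1.41 to -1.14.

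Averaged over its 26 probe sets, Col18a1 in MCA313 tumours read 9.33, 9.08 and 9.09 at 0 h, 8.27 and 7.81 at 24 h, and 8.01 and 8.09 at 48 h. All arrays of both times lay below all 0 h arrays, and 48 h minus 24 h was 0.01 ± 0.22, not called. The gene fell by 1.13 ± 0.20 at 24 h and by 1.12 ± 0.20 at 48 h on the log2 scale (adjusted p = 0.00356 and 0.00294; background 1.48% and 1.66% lower). In J558L tumours it read 8.82, 8.87 and 8.61 at 24 h against 9.71 and 9.75 at 0 h, a change of -0.97 ± 0.20 (adjusted p = 0.0117; background 1.03% lower). In 16.113 tumours it read 7.26, 7.27 and 7.77 with competent T cells against 8.61, 8.31, 8.21, 8.07 and 8.19 with deficient T cells, a change of -0.84 ± 0.16 (adjusted p = 0.00212). In none of the 3 tumours did the averaged values of the compared groups overlap. Among all single probe sets, 16.2% and 16.4% were lower without overlap in MCA313 at 24 h and 48 h. The shares were 14.6% in J558L tumours and 3.98% in 16.113 tumours.

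The averaged Col18a1 call in 16.113 tumours held without each of the 8 arrays (highest adjusted p 0.0137). In MCA313 it was lost without replicate 2 at 24 h (-0.90, adjusted p = 0.145) and, for 48 h, without replicate 1 at 48 h (-1.08, adjusted p = 0.0688), each of which leaves a group of 1 array whose spread is taken from the others. In J558L tumours it was lost without replicates 1 or 2 at 0 h (-0.98 and -0.95, adjusted p = 0.162 and 0.0957) or replicate 3 at 24 h (-0.89, adjusted p = 0.0588). In kidney the averaged change was -0.49 ± 0.18 (7.22 ± 0.40 against 7.72 ± 0.03; adjusted p = 0.124). Without kidney replicate 1 at 24 h Col18a1 was called in kidney in both ways, at -0.67 (adjusted p = 0.0410) averaged and at -0.88 (adjusted p = 0.0162) by the highest-mean probe set.

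**Figure D3:**
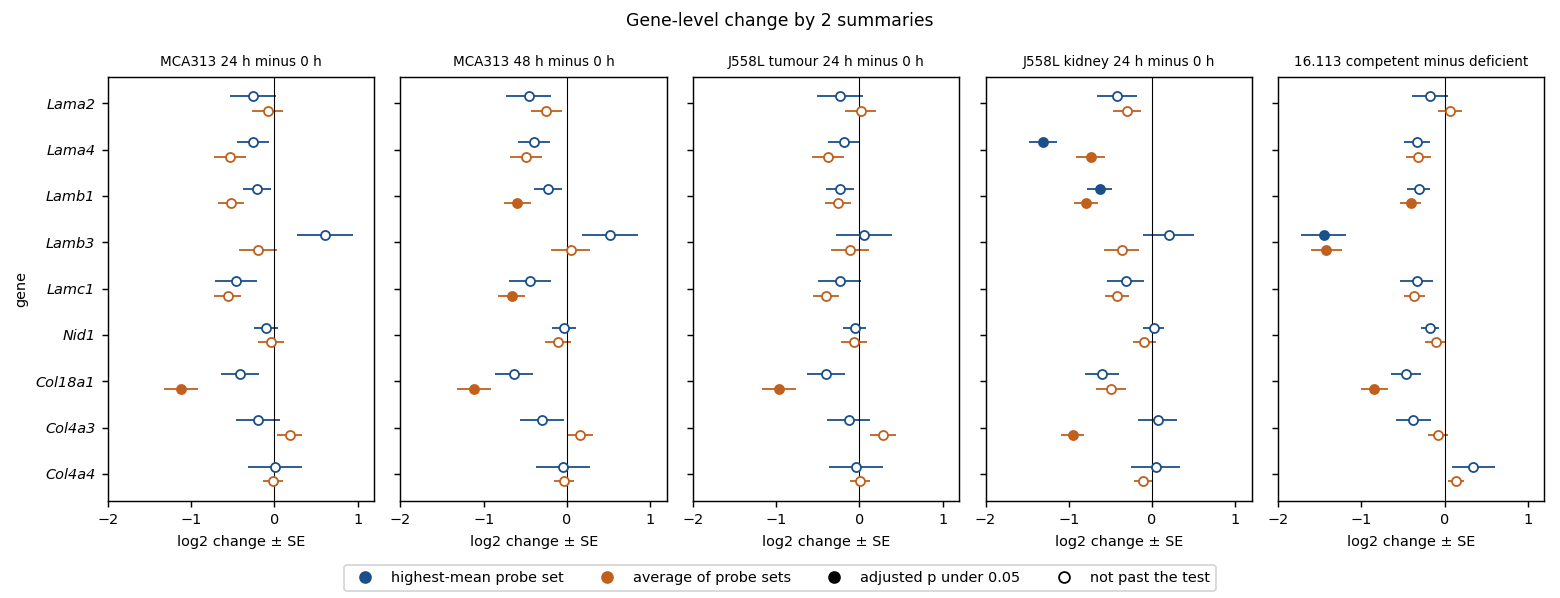
Log2 change ± SE of each gene in the 5 comparisons with a control, by the highest-mean probe set (blue) and by the average of probe sets (orange). Filled points have an adjusted p under 0.05. The orange point of Col18a1 lies at -1.13 and -1.12 in MCA313 at 24 h and 48 h, -0.97 in J558L tumours and -0.84 in 16.113 tumours, and the 2 summaries of Col4a3 in kidney lie at 0.07 and -0.95.

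Col4a3 encodes the α3 chain of type IV collagen, which with the α4 chain of Col4a4 and an α5 chain forms the collagen network of the glomerular basement membrane, made in mature glomeruli by podocytes. Its mutation causes Alport syndrome in humans. The highest-mean probe set, 17214805, read 9.60, 9.75 and 9.79 in kidney at 24 h against 9.46, 9.47 and 9.99 at 0 h, with overlapping groups and a change of 0.07 ± 0.24 (adjusted p = 0.953). The same probe set read 8.93 to 10.07 on average in all 9 groups. The average of all 32 probe sets differed. It was 5.14, 5.30 and 5.59 in kidney at 24 h against 6.30, 6.22 and 6.38 at 0 h, so all arrays at 24 h lay lower, and the gene fell by 0.95 ± 0.14 on the log2 scale in this summary (adjusted p = 1.11e-04). That call held without each of the 6 arrays (highest adjusted p 0.00129).

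In kidney endothelium 9 of the 32 Col4a3 probe sets exceeded the array median on average at 24 h, against 16 at 0 h. Of the 32, 26 were lower at 24 h, with a median of -0.68. The 4 called ones fell by 2.48 to 3.96. Probe set 17214822 read 4.45 ± 1.10 at 24 h against 7.78 ± 0.13 at 0 h (SD, n = 3 each; adjusted p = 6.29e-04), and 17214817 read 4.32 ± 1.69 against 8.28 ± 0.23 (adjusted p = 0.00945). The means at 24 h lie below the array medians of 6.33 to 6.40, so the sizes are uncertain. In J558L tumours the same 4 probe sets changed by 0.30, 0.09, 1.46 and 0.09, in order of identifier, with no call. In the tumours 5 to 10 of the 32 exceeded the medians of their own set in each group. There the averaged changes were 0.18 ± 0.15 and 0.16 ± 0.15 in MCA313 at 24 h and 48 h, 0.28 ± 0.15 in J558L tumours and -0.08 ± 0.12 in 16.113 tumours, none of them called.

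Tcf21, the 1 podocyte marker of 9 that the table held, averaged 5.01 ± 0.21 in kidney at 24 h against 4.82 ± 1.14 at 0 h (SD, n = 3 each), both below the array median. The tubule marker Havcr1 averaged 7.64 ± 0.13 at 24 h against 7.34 ± 0.29 at 0 h and was not called.

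**Figure D4:**
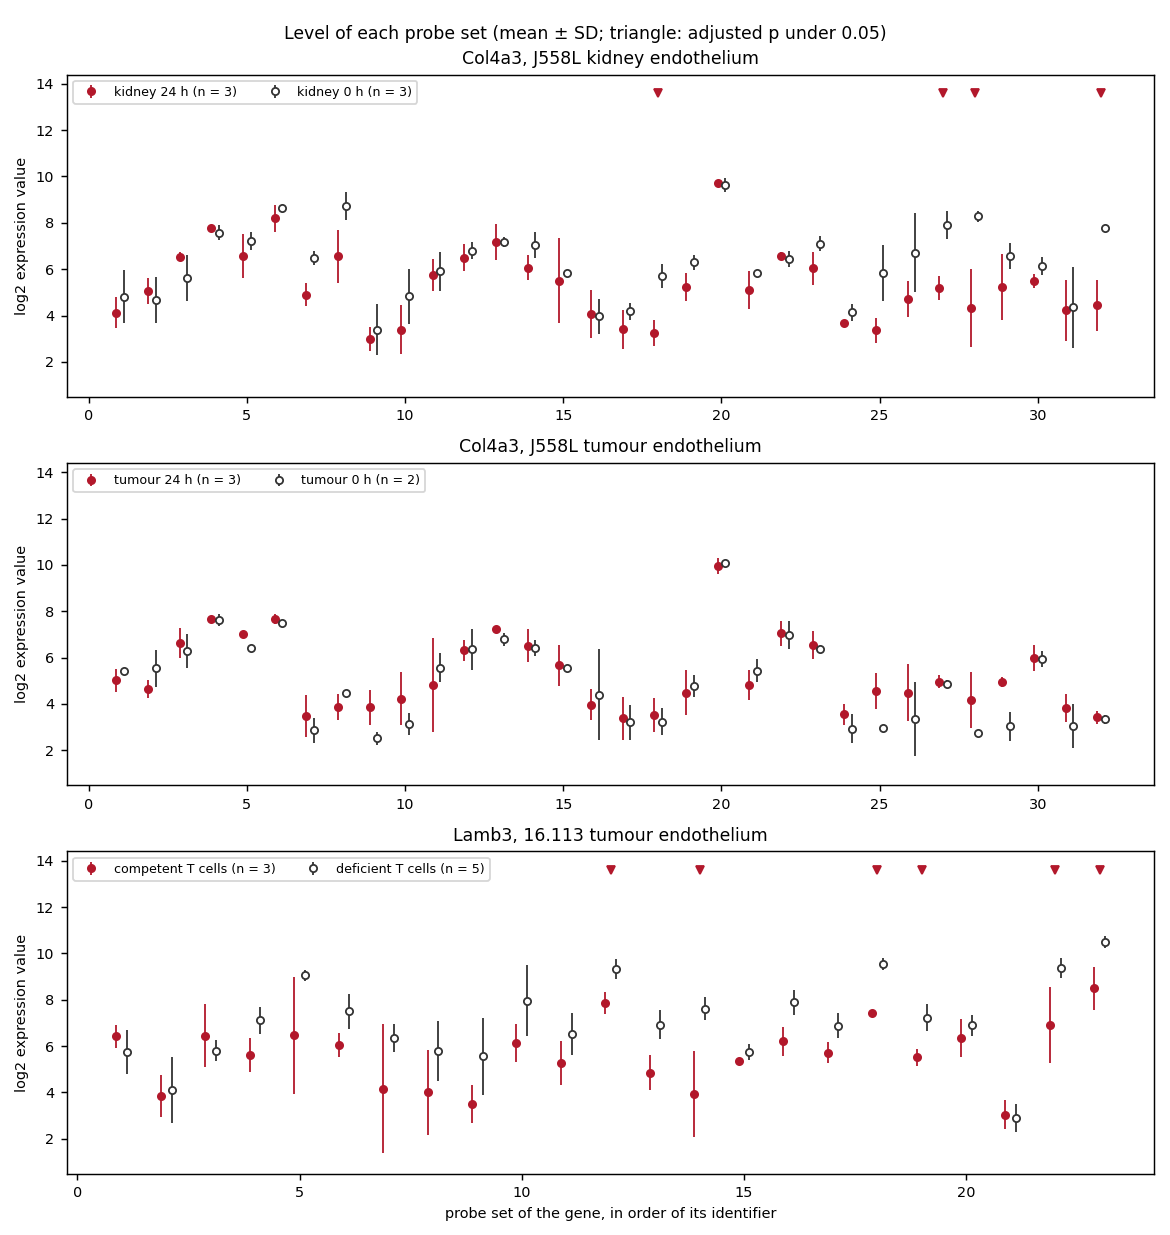
Level of each probe set in order of its identifier (horizontal axis), as group mean ± SD of log2 values, for Col4a3 in J558L kidney and J558L tumour endothelium and for Lamb3 in 16.113 tumours. Triangles mark probe sets with an adjusted p under 0.05. The 4 marked Col4a3 probe sets read 5.72 to 8.28 at 0 h in kidney, and the 6 marked Lamb3 probe sets all lie among the last 12 of the 23 in that order.

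Col4a4, the head-to-head neighbour of Col4a3, was not called in kidney. Its highest-mean probe set read 7.76, 7.93 and 8.43 at 24 h against 7.70, 7.97 and 8.31 at 0 h, a change of 0.04 ± 0.29, and the average of its 33 probe sets changed by -0.11 ± 0.11 (5.20 ± 0.02 against 5.31 ± 0.11). Of the 33, 15 were lower and 18 higher. In the other comparisons the highest-mean probe set changed by -0.05 to 0.35, the last in 16.113 tumours (7.90 ± 0.23 with competent against 7.55 ± 0.37 with deficient T cells; adjusted p = 0.472). Its 1 called probe set, 17224904, averaged 4.75 ± 0.38 at 0 h (n = 3), 5.72 ± 0.43 at 24 h and 2.59 ± 0.24 at 48 h in MCA313 (SD, n = 2 each). All 3 means lie below the array medians, and 11 of the 33 Col4a4 probe sets never exceeded the median in any array.

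Differences between responses were tested within the same fit. By the highest-mean probe set, limma called 0 of 9 genes for the J558L tumour response minus the kidney response (background 0.0228%), for MCA313 at 24 h minus J558L tumour (0%) or for 16.113 minus J558L tumour (0%). An unadjusted p under 0.05 was found for 1, 0 and 1 of them, against 210, 131 and 275 of all 4386 genes. Lama4 differed by 1.13 ± 0.26 between J558L tumour (-0.18) and kidney (-1.31), with an adjusted p of 0.185 (0.0277 to 0.805 over 20 alternatives; past the test with a trended and robust variance prior, 0.0346, and with array weights, 0.0277; 0.36 averaged over probe sets). Lamb3 differed by -1.51 ± 0.43 between 16.113 (-1.45) and J558L tumour (0.06), with an adjusted p of 0.407 (0.0532 to 0.804 over 21 alternatives). Averaged over probe sets that difference was -1.31 (adjusted p = 0.150), and without competent replicate 1 it was called (-1.50, adjusted p = 0.0177). Averaged over probe sets, Col4a3 differed by 1.24 ± 0.21 between J558L tumour (0.28) and kidney (-0.95), and this passed (adjusted p = 0.00639; background 0.251% higher) with every array left out in turn (highest adjusted p 0.0346). Among probe sets limma called 0 of 285 in each of the 3 differences (background 0.00371%, 0.00186% and 0% in either direction). An unadjusted p under 0.05 was found for 35, 9 and 13 of 285, against 2495, 1889 and 2991 of all 53857 probe sets.

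Other genes of the basement membrane were read from lists written with earlier results of these data known. Of 37 other structural genes 8 were on the table and tested. In kidney Prelp, a proteoglycan that anchors basement membrane to connective tissue, fell by 1.76 ± 0.34 (9.20 against 10.96; adjusted p = 0.00469), and Fbln5, an elastic fibre protein, fell in MCA313 at 24 h by 1.76 ± 0.40 (adjusted p = 0.0421). The median change of the 8 was -0.37 in kidney, against 0.01 over all genes, and 0.02 in 16.113 tumours, against -0.03.

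Of 29 receptor and adaptor genes 9 were tested. Sgcd, a sarcoglycan of the dystrophin complex, fell in kidney by 0.79 ± 0.19 (6.65 against 7.44; adjusted p = 0.0262), where 8 of the 9 were lower (median -0.48, against 0.01 over all genes, of which 48.8% were lower and 1.53% called lower). In MCA313 the list went the other way, with 6 of 9 higher at 24 h (median 0.26) and 7 of 9 at 48 h (median 0.18), none called, and in J558L tumours 7 of 9 were lower (median -0.09). Sdc1, a cell-surface heparan sulfate proteoglycan, fell in 16.113 tumours by 0.94 ± 0.27 (adjusted p = 0.0392), where 4 of the 9 were lower. Of 23 genes of assembly and secretion 10 were tested. In kidney Pxdn, the peroxidase that cross-links type IV collagen, fell by 1.37 ± 0.25 (10.93 against 12.30; adjusted p = 0.00365) and Mia3, which loads collagen for export, by 1.00 ± 0.24 (adjusted p = 0.0258). In 16.113 tumours Colgalt2, a collagen galactosyltransferase, fell by 1.70 ± 0.49 (adjusted p = 0.0380) and P4hb, a subunit of prolyl hydroxylase, by 0.70 ± 0.14 (adjusted p = 0.00494), and 9 of the 10 were lower (median -0.23, against -0.03 over all genes, of which 53.2% were lower and 4.81% called lower). Of the 10, 7 were lower in kidney (median -0.18), 6 and 7 in MCA313 at 24 h and 48 h (medians -0.23 and -0.16) and 7 in J558L tumours (median -0.03). Of 23 proteases and inhibitors 4 were tested, and Timp3, a metalloprotease inhibitor held in the matrix, rose in 16.113 tumours by 0.77 ± 0.17 (13.63 against 12.85; adjusted p = 0.00866).

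Markers of other cells moved in part with the groups, and their part in these results was not tested. In kidney all 3 pericyte markers on the table were lower at 24 h, none of them called. Rgs5 was 11.11 ± 0.04 against 11.76 ± 0.10, and Des was 7.78 ± 0.27 against 8.54 ± 0.23 (SD, n = 3 each). Rgs4 differed by less than its spread, at 6.10 ± 0.45 against 6.21 ± 0.28, with both means below the array median. Of 6 leukocyte markers 5 were higher in kidney at 24 h, with summed levels of 10.29 to 10.66 against 9.48 to 10.48, none called. The 5 endothelial markers changed by -0.31 to 0.07 there. In 16.113 tumours 4 of 8 tested fibroblast markers were lower with competent T cells, and their summed levels of 12.69 to 13.25 against 12.98 to 13.34 overlapped. Among them Col6a3, a collagen VI chain, was 5.07 ± 2.18 (at most 7.04) with competent against 8.29 ± 0.63 (at least 7.39) with deficient T cells, without overlap but not called (adjusted p = 0.0551). The Col6a3 mean with competent T cells lies below the array median of 5.67, so the size is uncertain. Dcn, the proteoglycan decorin, was 10.95 ± 1.33 against 12.11 ± 0.28 (adjusted p = 0.449). The other 4 were higher with competent T cells, none called. These were Col1a1 (10.99 against 10.66), Col5a2 (10.45 against 9.85), Col6a1 (9.04 against 8.76) and Col6a2 (8.98 against 8.69). In kidney 6 of the 8 were higher at 24 h, none called, with summed levels of 11.99 to 12.43 against 12.05 to 12.30. In 16.113 tumours pericyte markers summed to 8.67 to 9.37 with competent against 8.56 to 9.25 with deficient T cells. Leukocyte markers of 16.113 tumours summed to 10.77 to 11.23 with competent against 10.89 to 12.16 with deficient T cells. In J558L tumours fibroblast markers summed to 12.79 to 13.00 at 24 h against 12.41 to 12.67 at 0 h, and pericyte markers to 10.05 to 10.72 against 9.54 to 10.11. In MCA313 tumours pericyte markers summed to 9.92 to 12.22 at 0 h, 11.33 to 11.83 at 24 h and 10.72 to 10.89 at 48 h. Of the 5 plasma cell markers Irf4, a transcription factor of lymphocytes, rose by 3.39 and 3.04 in MCA313 at 24 h and 48 h, by 2.90 in J558L tumours and by 2.51 in 16.113 tumours (adjusted p = 0.00111, 0.00367, 0.00956 and 0.00111), and Sdc1 fell in 16.113 tumours. Control means of Irf4 (5.04, 6.09 and 5.17 in MCA313, J558L and 16.113 tumours) lay below the array medians, so these sizes are uncertain. All 5 markers were higher in MCA313 at both times (medians 0.14 and 0.17). In J558L tumours 3 of the 5 were lower (median -0.09), and in 16.113 tumours 4 were (median -0.20).

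As a description over the 26 arrays, with each set centred on its mean, the averaged levels of Lamc1 and Col18a1 had a correlation of 0.91, Lama4 and Lamc1 0.87, Lamb1 and Lamc1 0.87, and Lama4 and Lamb1 0.81. Nid1 correlated with Lamc1 at 0.50 and Col4a3 with Col4a4 at 0.28. By the highest-mean probe set the genes most like Lama4 were Sec14l1 (0.81), Itgb3 (0.80) and Cxcr4 (0.80), and those most like Lamb1 were Sec14l1 (0.83), Gmpr (0.82) and Rrm2 (0.82). Col18a1 was most like Mgat4a (0.82), Lamb1 (0.82) and Rrm2 (0.82), Lamc1 like Fam78b (0.84), Fam104a (0.82) and Myo18a (0.79), and Nid1 like Galc (0.83), Ywhae (0.81) and Spag5 (0.80). Lamb3 was most like Cnih4 (0.83), Adssl1 (0.74) and Epb41l5 (0.74), and Lama2 like Frk (0.78), D130043K22Rik (0.65) and Drg1 (0.64). Col4a3 was most like Erbb2 (0.73), Zbtb25 (0.66) and Alkbh5 (0.64), and Col4a4 like Spata22 (0.71), Fkbp1b (0.67) and 2310081J21Rik (0.64). The points share arrays and include the differences between the groups.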

How the data were processed

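Gene expression of sorted endothelial cells was measured on 26 Affymetrix arrays. The deposited values are log2 values for 65535 probe sets, whose genes lie mainly on chromosomes 1, 10, 11, 12 and 13, and the submitters' processing notes name Expression Console and limma. The normalization method and the genome build of the probe sets are not given in the sources used here. No array was left out of the main fits, and the number of arrays, 2 to 5 a group, limits the precision.

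Probe sets were named from the platform annotation: 53857 had a single symbol, 766 several and 10912 none, and the last 2 kinds were not tested. Of the annotated symbols 4618 were current, 494 were synonyms and 8 were unmatched. Group means of all 9 groups were fitted together with limma 3.58.1 (R 4.3.3), and contrasts were taken within a separately normalized set or as differences of such contrasts. A gene was represented by its highest-mean probe set, kept where this exceeded the array median in at least 2 arrays (4386 genes). Probe sets were also tested singly, without a filter. P-values were adjusted by the Benjamini-Hochberg method over all features, with a threshold of 0.05. The gene-level fits were run on simulated data with independent noise, whose spread for a gene was the same in every array. Arrays of unequal spread were not simulated.

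Alternatives were averaging the probe sets of each gene, other filters, quantile normalization, a trended and robust prior, array weights, replicate number as a block, the arrays compared alone and each array left out. Leaving out arrays in the averaged summary was chosen after seeing the data. The members and gene lists were chosen with earlier results of these data known. Named genes were all members, those of the lists past the test, and the 3 genes most like each member. Markers named outside these lists and single probe sets were chosen after their values were seen. Same-numbered replicates did not deviate together (correlations of -0.144 to 0.113), and the main fit used no pairing. The labels do not say whether numbers pair samples, and with so few arrays a group these correlations cannot decide it.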

Additional observations from a re-analysis of the deposited data

Results flagged for a closer look

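The averaged Col4a3 response differed between J558L tumour and kidney endothelium by 1.24 on the log2 scale (0.28 in tumour, -0.95 in kidney), a difference that passed its own test (adjusted p = 0.00639). By the highest-mean probe set it was -0.20 and not called. The cause was not tested. Only the 16.113 group with deficient T cells held enough arrays to be searched for an array standing apart. Of its 18 groups of values none had one, and the other groups were not searched.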

How the results depend on the processing

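Counts below are member genes or probe sets called, with the share of all features called in brackets, and the cause of each change was not tested. Over the 9 member genes, the average of probe sets called 1 at MCA313 24 h (2.8%), 3 at MCA313 48 h (3.1%), 1 in J558L tumours (2.12%), 3 in kidney (5.93%) and 3 in 16.113 tumours (9.35%), against 0, 0, 0, 2 and 1 by the highest-mean probe set. In kidney these were Lama4, Lamb1 and Col4a3, against Lama4 and Lamb1. For the J558L tumour minus kidney difference the average, the trended and robust prior and array weights each called 1 (0.342%, 0.114% and 0.365%), against 0. With the arrays compared alone, which leaves fewer arrays to estimate the spread, the kidney had 1 gene against 2 (3.76%). In such a fit 16.113 had 0 against 1 (0.775%, against 7.36% in the main fit). Array weights, lower where an array has more spread, were 0.28 to 0.69 for the competent 16.113 arrays. They were 0.68 to 1.26 for the deficient ones and 0.63 to 1.87 in the other sets. Col4a3 reversed with the average, to -0.95 in kidney (0.07 by the highest-mean probe set) and to 1.24 for tumour minus kidney (-0.20).

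Among probe sets, a filter at the array median, which kept 236 of the 285, called 1 in J558L tumours (0.142%) and 18 in 16.113 (4.04%). At the 75th percentile, which kept fewer, the counts were 4 at MCA313 48 h (0.977%), 0 for 48 h minus 24 h (0.0312%), 1 in J558L tumours (0.312%), 22 in 16.113 (21 lower, 1 higher; 8.87%) and 1 for tumour minus kidney (0.0535%). Over all 285, quantile normalization called 1 at MCA313 48 h (0.15%). The trended and robust prior called 5 at MCA313 48 h (0.371%), 1 in J558L tumours (0.132%), 17 in 16.113 (3.19%) and 1 for tumour minus kidney (0.0334%). Array weights called 1 at MCA313 24 h (0.132%), 5 at 48 h (0.377%), 1 in J558L tumours (0.579%), 1 in 16.113 (0.292%, against 2.28% without weights) and 3 for tumour minus kidney (0.0631%). With the arrays compared alone the counts were 0 at MCA313 48 h (0%), 0 for 48 h minus 24 h (0%), 6 in kidney (0.787%) and 1 in 16.113 (0.139%).

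Leaving out each array in turn gave 1 to 3 genes in kidney, 1 in every 16.113 fit and 0 in every fit of the other 7 comparisons. Among probe sets it gave 8 to 17 in kidney, 7 to 16 in 16.113, 0 to 1 at MCA313 48 h, 0 to 1 for 48 h minus 24 h, 0 to 2 for tumour minus kidney and 0 to 2 for 16.113 minus J558L. With replicate number as a block, 1 probe set was called at MCA313 48 h against 2, the kidney kept counts of 2 genes and 18 probe sets, and 16.113 counts of 1 and 11.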
